A study of Mus musculus with 12 samples.

Results

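The heavy-chain variable (V) genes outside the IGHV1 family were examined in the antibody repertoire of mouse antibody-secreting cells (ASCs), a name that covers dividing plasmablasts and mature plasma cells. Members were all cells whose single productive heavy-chain contig carried an IGHV gene other than an IGHV1 gene, IGHV11-2 or IGHV12-3. This rule gave 4071 of the 8415 cells with 1 productive heavy chain, and 42 of the 91 IGHV genes detected. A clone was a set of cells with the same V gene, joining (J) gene and CDR3 amino acids, and members formed 1519 of 3310 clones. IGHV1 genes held 4182 cells and 1766 clones, and IGHV11-2 and IGHV12-3, the V genes linked to B-1 cells, held the other 162 cells.

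Female and male Prdm1-eYFP mice on the C57BL/6 background were used at an age of 3 months, and their ASCs were sorted from spleen, thymus and bone marrow. Each sort pooled 3 mice and was gated as B220+/- CD138HI IgD- CD90.2- and positive for the reporter, in which a yellow fluorescent protein is expressed from the promoter of Prdm1, a transcription factor of ASCs. All groups carried this reporter, and the labels give no treatment. Each sex and organ gave 1 receptor (VDJ) library and 1 gene expression library, so each organ had 2 VDJ libraries, and individual mice could not be separated within a pool. The gate includes Prdm1-positive cells that keep B220, so it does not separate plasmablasts from plasma cells.

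Heavy chains are assembled from a V, a D and a J segment, and the joined ends form the third complementarity-determining region (CDR3), the most variable loop of the antigen-binding site. The V genes fall into families by sequence similarity, and in C57BL/6 mice IGHV1, also called J558, is the largest. Class switching replaces the IgM constant region with IgG or IgA while the V region is kept, and somatic hypermutation alters the V region itself. IgA is the class of mucosal antibody, and IgG is the main class of T cell-dependent serum responses. An ASC clone that has divided repeats the same rearrangement in many cells, so V gene use was counted in clones, once per library, unless stated otherwise.

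All 42 member genes had a position on chromosome 12, on the minus strand, in the GENCODE M21 annotation of GRCm38. The leading ones ran from IGHV2-2 at chr12:113588267-113588702 to IGHV8-8 at chr12:115294062-115294504. Between them lay IGHV5-4 (chr12:113597446-113597977), IGHV5-9-1 (chr12:113736111-113736630), IGHV9-3 (chr12:114140692-114141122), IGHV7-3 (chr12:114153180-114153644), IGHV14-4 (chr12:114176438-114176867), IGHV9-4 (chr12:114299961-114300389), IGHV6-3 (chr12:114391712-114392169) and IGHV6-6 (chr12:114434788-114435244). These spans are whole V genes, leader and V exon with the intron between them. What each gene can contribute to CDR3 is encoded in the last bases of its V exon. The germline 3′ ends of the genes that the comparisons turn on are shown here because CDR3 was compared among these genes. The last 30 bases of the coding strand are given, and capitals run from the codon of the conserved cysteine, where CDR3 begins.
IGHV5-4: ggacacagccatgtattacTGTGCAAGAGA
IGHV5-9-1: ggacacagccatgtattacTGTACAAGAGA
IGHV6-3: tgaagacactggaatttattacTGCACAGG
IGHV6-6: gaagacactggcatttattacTGTACCAGG
IGHV7-3: acagtgccacttattacTGTGCAAGATATA
IGHV8-8: atactgccacatactacTGTGCTCGAATAG
IGHV9-3: gaggacacggctacatatttcTGTGCAAGA
IGHV14-4: gaggacactgccgtctattacTGTACTACA
From the cysteine codon on, the germline held 13 bases in IGHV8-8, 9 in IGHV14-4 and 8 in IGHV6-3. IGHV5-4 and IGHV5-9-1 each held 11.

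The sex labels of the VDJ libraries did not match those of the gene expression libraries. Of the 1743 bone marrow cells labelled female, 1686 barcodes were in the gene expression library labelled male and 36 in that labelled female. The same crossing was seen in spleen, where 2790 of 2889 matched the opposite label, and in thymus, where 702 of 911 did. Of the cells labelled male, 1031 of 1034, 1252 of 1252 and 306 of 586 matched the opposite label in the 3 organs. The deposited contig tables are also named with the sex opposite to their label. Libraries are therefore called "labelled female" and "labelled male" throughout, and no direction is read as a sex difference.

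Libraries of 1 label shared clones, and libraries of different labels rarely did. Any 2 libraries of the same label had 19 to 46 member clones in common, against 1 to 5 between labels. Libraries of 1 label were therefore treated as 1 source of mice in the organ fits, where the label was a block. The class fits and the sign-flip tests below instead took each of the 6 libraries as a unit, although libraries of 1 label share a pool. Their p-values do not measure a spread between pools. The label contrast is thus 1 pool against 1 pool, and p-values measure only the spread between these 6 libraries. Any 2 VDJ libraries shared at most 11 cell barcodes. Depth differed: the median was between 325 and 758 heavy-chain UMIs (unique molecular identifiers, counted molecules) per cell in bone marrow and spleen, 122 in the thymus labelled female and 22.5 in the thymus labelled male.

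Member cells carried ASC transcripts in the matched gene expression libraries. The shares below cover the member cells whose barcode was also in the matched library, 584 of 616 and 352 of 353 in bone marrow (labelled female and male), 1712 of 1806 and 586 of 586 in spleen, and 338 of 450 and 143 of 260 in thymus. Jchain, which links polymeric IgM and IgA, was detected in 100% of these cells in each library, Xbp1, a driver of secretory capacity, in 81.8% to 99.8%, and Prdm1 in 52.4% to 90.4%. Of the B cell markers, Ms4a1 was detected in 4.2% to 38.2% and Pax5 in 0% to 0.51%. T cell markers were at most 3.5% (Trbc2). Of the macrophage markers, Cd68 reached 10.8%, Csf1r 0.29% and Adgre1 0.18%. Of the neutrophil markers, S100a9 reached 18.0%, S100a8 11.6% and Ly6g 0.85%. Free RNA was not removed, so a UMI does not by itself show that a cell expressed the gene.

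The V gene of the contig was mostly also the V gene with the most UMIs in the same cell's expression profile. This held for 98.3% and 98.6% of member cells in bone marrow (labelled female and male), 95% and 94.5% in spleen, and 77.5% and 65.0% in thymus. In IGHV1 cells the shares were 99.4% and 99.2%, 97.4% and 98.2%, and 96.6% and 81.0%. By gene, it held for 345 of 380 IGHV8-8 cells, 143 of 150 IGHV5-9-1 cells and 94 of 116 IGHV2-2 cells. Member genes took 35.3% to 65.4% of all IGHV UMIs over the 6 gene expression libraries, the highest being the spleen library in which IGHV9-3 alone took 39.6%.

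Members held 39.3% of clones in both bone marrow libraries. Their share was 44.5% (labelled female) and 49.1% (labelled male) in spleen, and 49.8% and 45.4% in thymus. The means were 39.3% ± 0.0353 (SD, n = 2) in bone marrow, 46.8% ± 3.25 in spleen and 47.6% ± 3.11 in thymus. Both bone marrow values lay below all 4 others. This order was not tested, and between any 2 organs an exact permutation test of 2 against 2 libraries cannot give a p below 0.333. By cells the shares were 35.3% and 34.1%, 62.5% and 46.8%, and 49.4% and 44.4%. The spleen value of 62.5% fell to 43.4% without its largest member clone, an IGHV9-3 clone of 977 cells.

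IGHV5 was the largest family among the members, with a mean of 8.37% of clones ± 3.46 (SD over the 6 libraries). IGHV8 (6.47%), IGHV6 (5.94%), IGHV2 (5.70%), IGHV9 (4.21%), IGHV14 (3.65%), IGHV3 (3.51%) and IGHV7 (3.18%) followed. IGHV10 (1.77%), IGHV4 (1.5%), IGHV13 (0.23%) and IGHV11 (0.014%) were rarer, the last being 1 clone of IGHV11-1. IGHV15 and IGHV16 were found in 0 of 8415 cells, a count that allows for up to 3. From IGHV5 to IGHV7, neighbours in this order differed by less than the larger of their SDs, and IGHV5 itself was first in the 3 libraries labelled male but not in those labelled female.

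Among single genes, IGHV8-8 had the highest mean share of clones per library, 4.83% ± 1.93 (SD, n = 6). Counted in lineages of similar CDR3, defined below with IGHV5-9-1, IGHV6-3 came first, with 3.83% ± 1.47 against 3.62% ± 1.24 for IGHV8-8, and IGHV6-3 also had more clones in all, 134 against 130. IGHV8-8 took 7.67% and 3.68% of clones in bone marrow (labelled female and male), 3.00% and 3.30% in spleen, and 6.70% and 4.62% in thymus. IGHV6-3 took 2.12% and 3.09%, 4.71% and 5.02%, and 2.01% and 4.34%, and its 2 spleen values were its highest. IGHV9-3 (mean 2.89%) and IGHV3-6 (2.89%) were level. IGHV6-6 (2.39%), IGHV5-4 (2.38%) and IGHV5-9-1 (2.34%) were likewise within their spread of each other. IGHV7-3 (1.95%), IGHV2-2 (1.80%), IGHV14-4 (1.68%), IGHV4-1 (1.5%), the only gene of its family with cells, and IGHV5-17 (1.44%) completed the leading 12. These 12 held 63.0% to 72.0% of member clones per library. Of the 42 members, 22 had cells in all 6 libraries and 3 in only 1.

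**Figure D1:**
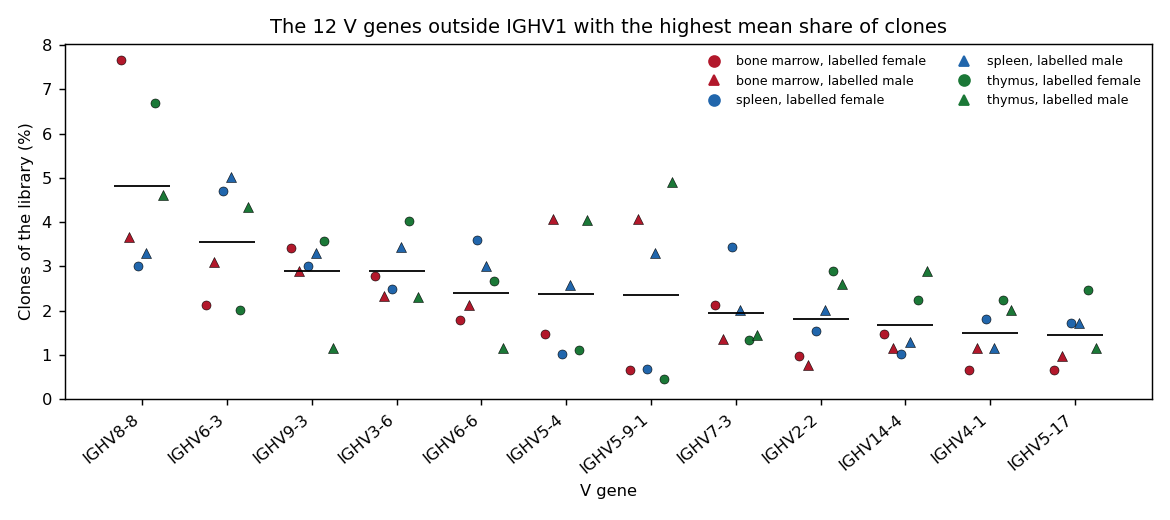
Share of all clones of a library (vertical axis, percent) for the 12 members with the highest mean share. Circles are libraries labelled female, triangles libraries labelled male, colours the organs, and bars the means of 6 libraries. IGHV8-8 had the highest mean, 4.83%, although by lineages IGHV6-3 was higher (3.83% against 3.62%), and IGHV5-9-1 split by label, with 3 triangles above 3% and 3 circles below 1%.

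Between organs, 0 of the 23 genes that passed the low-count filter differed in any of the 3 contrasts, a background of 0% each. The 11 members among them were likewise 0, by edgeR's quasi-likelihood test with the label as a block, and DESeq2 also called 0. At an unadjusted p under 0.05 there were 2 of all 23 genes in each contrast, and both were members. For thymus against bone marrow they were IGHV2-2 and IGHV4-1. IGHV2-2 took 2.90% and 2.60% of thymus clones against 0.98% and 0.77% in bone marrow, and the log2 fold change was 1.63 ± 0.59 (SE) with an adjusted p of 0.185. The other 31 members were too rare to be tested this way.

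A single family passed between organs, and IGHV6 was higher in spleen than in bone marrow. Its share was 8.31% and 8.03% in spleen, 3.92% and 5.22% in bone marrow, and 4.69% and 5.49% in thymus. The spleen values lay above all 4 others. The log2 fold change of spleen over bone marrow was 0.87 ± 0.24 (SE, edgeR, adjusted p = 0.0184), in a contrast where 1 of 12 families (8.33%) passed. The call was lost without the label as a block (adjusted p = 0.0926), by DESeq2 and in 5 of the 6 fits that left out 1 library, namely either bone marrow library, either thymus library or the spleen library labelled female. The IGHV6 call was also lost with cells counted and without clones of more than 1 library. For thymus against bone marrow and thymus against spleen 0 of 12 families passed (0% each), by edgeR and by DESeq2. In each contrast 3 had an unadjusted p under 0.05 by edgeR. IGHV10 had 3.68% and 2.15% in spleen and 0.58% to 1.56% elsewhere, with an adjusted p of 0.0516 for spleen against bone marrow.

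Between the 2 pools, 2 IGHV5 genes were the members that passed. IGHV5-9-1 was found in 21 clones of bone marrow, 23 of spleen and 17 of thymus in the libraries labelled male, against 4, 8 and 2 in those labelled female. As shares these are 4.06%, 3.30% and 4.91% against 0.65%, 0.69% and 0.45%. The groups did not overlap, and the log2 fold change was 2.58 ± 0.43 (SE, edgeR, adjusted p = 6.14e-06). Of the 23 genes tested 5 (21.7%) passed in this contrast, and of the 11 members tested 2 did, both IGHV5 genes.

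The other was IGHV5-4, with 21, 18 and 14 clones labelled male against 9, 12 and 5 labelled female. Its log2 fold change was 1.49 ± 0.39 (SE, adjusted p = 0.0024), and it missed the threshold without either bone marrow library or without the thymus library labelled female (adjusted p up to 0.191). The IGHV5 family took 10.8%, 11.2% and 12.4% of clones labelled male and 4.73%, 5.48% and 5.58% labelled female. This gave 1.10 ± 0.19 on the log2 scale (SE, adjusted p = 4.72e-05), the only one of 12 families to pass (8.33%). Another IGHV5 gene, IGHV5-17, overlapped between labels, at 0.97%, 1.72% and 1.16% against 0.65%, 1.71% and 2.46%. The 9 remaining tested members had log2 fold changes between -0.60 (IGHV7-3) and 0.39 (IGHV6-3), none of them past the threshold. In 2 CDR3s both IGHV5-4 and IGHV5-9-1, whose germline ends shown above are alike, were assigned.

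Many IGHV5-9-1 clones labelled male had similar CDR3s. Clones with the same V and J gene and equal CDR3 length were joined into lineages by single linkage. Each joined CDR3 lay within 15% base mismatches of at least 1 other in its lineage, so 2 clones of a lineage can differ by more. By this count IGHV5-9-1 had 13, 10 and 11 lineages labelled male and 3, 8 and 2 labelled female. The log2 fold change fell to 1.74 (adjusted p = 0.0214). For IGHV5-4 the result moved little, with 20, 18 and 13 against 6, 11 and 5 lineages and a log2 fold change of 1.58.

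The first IGHV5-9-1 lineage, joined to IGHJ2, held 36 cells in 11 clones with 21 different CDR3 base sequences. It was found in bone marrow (10 cells), spleen (17) and thymus (9) of the libraries labelled male and in no cell labelled female. The second, with IGHJ3, held 46 cells in 8 clones, at 26, 13 and 7 cells in the same libraries. Their commonest CDR3 sequences are shown, from the cysteine codon to the tryptophan codon, because variants of a lineage can be set out by organ and class. Capitals mark bases that differ from variant 1 of the lineage.
Lineage 1 variant 1: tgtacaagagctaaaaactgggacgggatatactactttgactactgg
Lineage 1 variant 2: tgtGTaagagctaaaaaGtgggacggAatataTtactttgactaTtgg
Lineage 1 variant 3: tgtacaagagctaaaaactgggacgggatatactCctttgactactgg
Lineage 1 variant 4: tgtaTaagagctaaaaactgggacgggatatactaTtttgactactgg
Lineage 2 variant 1: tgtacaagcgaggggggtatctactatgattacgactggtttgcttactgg
Lineage 2 variant 2: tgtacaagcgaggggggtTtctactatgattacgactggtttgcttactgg
Lineage 2 variant 3: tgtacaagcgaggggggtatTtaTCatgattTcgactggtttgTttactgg
Variant 1 of lineage 1 had 11 cells, 4 in bone marrow, 4 in spleen and 3 in thymus, and 7 of them were IgM. Variant 2, with 6 changed bases, had 3 cells, all IgG and all from spleen. In lineage 2, variant 1 had 20 cells in all 3 organs, 18 of them IgM and none IgG, whereas the 7 cells of variant 3, with 5 changed bases, were all IgG. Lineage 3, with IGHJ4 and a CDR3 of 9 codons, held 16 cells in 6 clones and crossed the labels, with 7 cells labelled female (5 in bone marrow, 2 in spleen) and 9 labelled male (1 in bone marrow, 8 in spleen). All 16 had a V region at germline, and its commonest CDR3 sequences differed from the first by up to 6 CDR3 bases, so the joining rule can also put cells of different pools into 1 lineage. The V region of lineage 1 differed from germline at 1.94% of bases on average and that of lineage 2 at 0.854%.

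**Figure D2:**
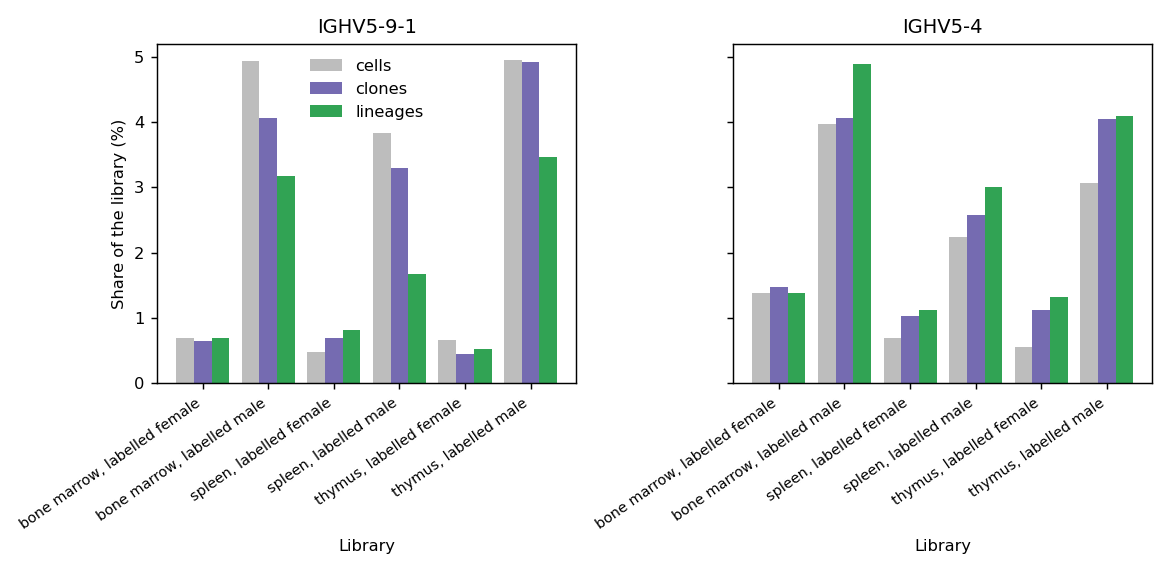
Share of each library (vertical axis, percent) held by IGHV5-9-1 and IGHV5-4, counted as cells, clones or lineages, with 1 group of bars per library. IGHV5-9-1 and IGHV5-4 were higher in the libraries labelled male by all 3 counts in each organ, and counting lineages brought IGHV5-9-1 in the spleen labelled male from 3.30% to 1.67%.

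Members were then compared between heavy-chain classes within each library, with a clone counted in each class it was seen in. Members held 1218 IgM, 204 IgA and 274 IgG clones. Class counts of clones are summed over the 6 libraries, so a clone seen in several libraries counts in each. For the class fits 64 genes had at least 15 clones, 28 of them members. For IgA against IgM 3 of 64 genes (4.69%) passed, of which 2 were members. For IgG against IgM 4 of 64 (6.25%) passed, of which 2 were members. These splits depended on the scaling. With TMM, which scales each library by its typical gene, the median log2 fold change of all genes moved from -0.045 to -0.88 for IgA and from 0.16 to -0.45 for IgG. It called 14 genes for IgA, 0 higher and 14 lower, where library totals gave 1 higher and 2 lower, and 9 for IgG, 0 higher and 9 lower, where library totals gave 1 higher and 3 lower. DESeq2 used size factors of its own in place of library totals, and its medians were also lower, -0.52 for IgA and -0.21 for IgG. It called 0 genes higher and 3 lower for IgA, and 0 higher and 6 lower for IgG.

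IGHV8-8 was nearly absent from IgA. Summed over libraries, it had 149 IgM clones and 4 IgA clones. Its share of IgM clones was 8.77% and 5.46% in bone marrow (labelled female and male), 3.56% and 4.66% in spleen, and 7.44% and 6.76% in thymus. Its share of IgA clones was 1.43% and 0%, 0% and 0%, and 1.52% and 3.45%, lower than IgM in all 6 libraries. The log2 fold change was -2.70 ± 0.64 (SE, edgeR, adjusted p = 0.00205), and it kept its direction and its call in each fit that left out 1 library. In IgG, IGHV8-8 held 17 clones, and its log2 fold change of -0.99 did not pass (adjusted p = 0.166), although its IgG share was below its IgM share in 6 of 6 libraries. DESeq2 and TMM scaling each called it lower, but both also moved the median of all genes down.

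The IGHV8 family followed, at 3.20% of IgA clones against 7.50% of IgM clones (log2 fold change -1.06 ± 0.39, SE, adjusted p = 0.0397). The estimates of its genes differed in sign. IGHV8-12, named here after its values were seen, held 10 of the 16 IgA clones of the family and 26 IgM clones, with a log2 fold change of 1.24 ± 0.65 that did not pass (adjusted p = 0.204). IGHV9 went the other way. It took 10.0% and 7.02% of IgA clones in the bone marrow libraries, 6.82% and 7.92% in those of spleen, and 7.58% and 8.62% in those of thymus. Its IgM shares were 3.55% and 4.02%, 2.62% and 3.29%, and 5.50% and 1.45%, each below the IgA share of the same library. The log2 fold change was 1.19 ± 0.35 (SE, adjusted p = 0.0165). Of 12 families 3 (25%) passed for IgA, 2 of them among the 10 tested families of members. IGHV9-4 passed on few clones, 8 IgA and 7 IgM (log2 fold change 2.22 ± 0.72, SE, adjusted p = 0.0464). All 8 IgA clones of IGHV9-4 were in libraries labelled male (2, 3 and 3), so they come from 1 pool, and the call was lost with DESeq2 (adjusted p = 0.281) and in both fits without 1 library in which the gene could be tested (without the bone marrow or the thymus library labelled female, 0.0864 and 0.058). IGHV9-4 was also not called with cells or lineages counted, TMM scaling, exactly 1 light chain or no low-count filter. Nor was it called with barcodes in a gene expression list or without clones of more than 1 library. IGHV9-3, with most of the family's clones, had 1.20 ± 0.44 (adjusted p = 0.0979). The IGHV8 call was lost without either spleen library, without the bone marrow library labelled female or without the thymus library labelled female, and the IGHV9 call without the spleen library labelled male (adjusted p = 0.0645). Counting lineages left neither family past the threshold (adjusted p = 0.0574 for IGHV9 and 0.2 for IGHV8).

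IGHV6 and IGHV7 were low in IgG. IGHV6 held 4.18% and 5.75% of IgM clones in the bone marrow libraries, 9.41% and 11.2% in those of spleen, and 6.47% and 5.80% in those of thymus. Its IgG shares were 3.92% and 5.45%, 3.23% and 2.79%, and 1.43% and 0%, below IgM in all 6 libraries. The log2 fold change was -1.61 ± 0.36 (SE, adjusted p = 0.000721), but counted in cells it was -0.30 and not past the threshold. IGHV7 had 105 IgM clones and 5 IgG clones, and its log2 fold change was -2.16 ± 0.55 (SE, adjusted p = 0.00164).

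Of the genes in these families, 1 in each passed. IGHV6-6 had 88 IgM and 5 IgG clones (log2 fold change -2.16 ± 0.58, SE, adjusted p = 0.0077). IGHV7-3 had 67 IgM and 2 IgG clones (log2 fold change -2.76 ± 0.75, SE, adjusted p = 0.0077). IGHV6-3 (115 IgM and 13 IgG clones, log2 fold change -1.21 ± 0.48, adjusted p = 0.0842) and IGHV7-1, named here after its values were seen (35 and 3 clones, -1.13 ± 0.86, adjusted p = 0.478), had estimates of the same sign that did not pass. IGHV6-3 did pass with DESeq2, with TMM scaling, without the bone marrow library labelled female and without clones of more than 1 library. Genes within a family were not tested against each other. IgG clones of IGHV7-3 were seen in 2 of the 6 libraries, so its value rests on very few clones. IGHV7-3 was not low in IgA, where it had 13 clones and 3.07% of the class against 2.08% of IgM.

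IGHV5 was higher in IgG, at 5.88% and 16.4%, 6.45% and 15.9%, and 5.71% and 26.6% of IgG clones against 3.97% and 11.5%, 5.02% and 9.04%, and 4.21% and 12.6% of IgM clones. The IgG share was above the IgM share in 6 of 6 libraries (log2 fold change 0.73 ± 0.26, SE, adjusted p = 0.0255). It was lost with DESeq2, with TMM scaling (adjusted p = 0.121), with cells counted and without the spleen library labelled male. Of 12 families 4 (33.3%) passed for IgG, 3 of them among the 10 tested families of members. Without the spleen library labelled male, which held 116 of the 274 member IgG clones by library, none of these IgG calls for genes or families remained, and the 2 gene calls were also lost without the spleen library labelled female. Without the library as a block, IGHV6-6, IGHV7-3 and IGHV5 in IgG and IGHV8 and IGHV9-4 in IgA did not pass (adjusted p from 0.0593 to 0.178).

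**Figure D3:**
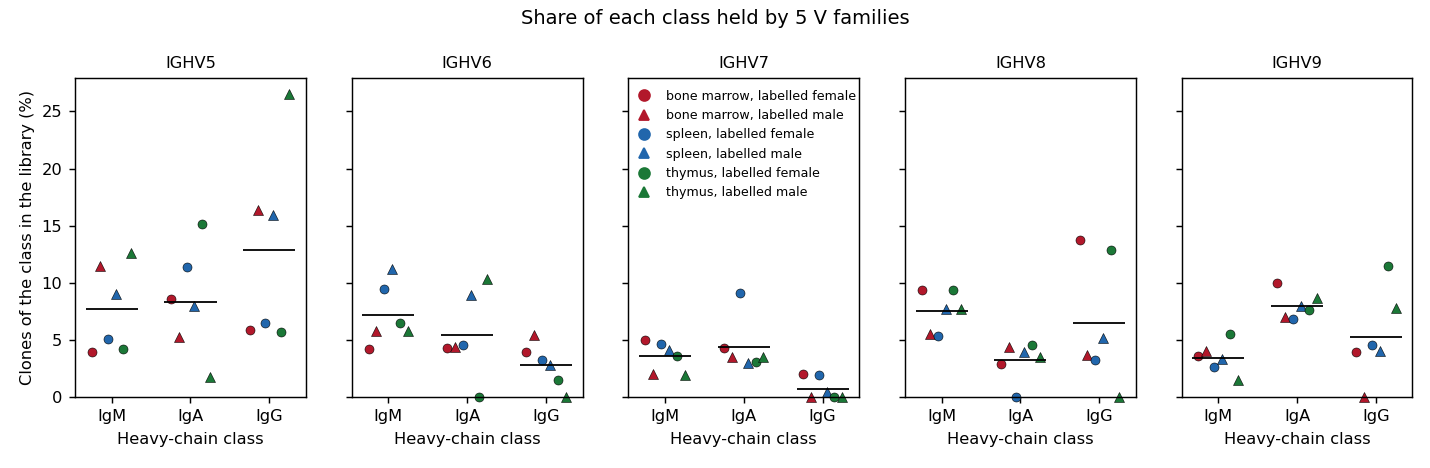
Share of the IgM, IgA or IgG clones of a library (vertical axis, percent) held by 5 V families. Circles are libraries labelled female, triangles libraries labelled male, colours the organs, and bars means of 6 libraries. IGHV8 fell from a mean of 7.50% in IgM to 3.20% in IgA, IGHV9 rose from 3.40% to 7.99%, and IGHV7 fell from 3.54% in IgM to 0.72% in IgG.

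CDR3 length was described by organ and by family. It is given in codons without the anchoring cysteine and tryptophan. The mean over member clones was 12.4 and 11.9 in bone marrow (labelled female and male), 11.1 and 11.4 in spleen, and 11.6 and 11.7 in thymus, so the spleen values were the lowest when clones were counted. Counted in cells, the means were 11.6 in spleen and 11.5 in thymus. Families with at least 10 clones in each library, 6 in all, were compared with all other clones of the same library by an exact two-sided sign-flip test. This test flips each library on its own, although the 6 libraries come from 2 pools. Its smallest possible p with 6 libraries is 0.03125, which 19 of 60 comparisons reached. After adjustment over the 60 none passed (smallest adjusted p = 0.0987). At least 38 would have had to reach it for any to pass, so a single difference of any size could not.

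IGHV14 had the shortest CDR3s, with 8.06 and 7.73 codons in the bone marrow libraries, 8.37 and 9.04 in those of spleen, and 8.78 and 9.24 in those of thymus. All other clones averaged 11.4 to 12.2 in the same libraries. The difference was -3.30 ± 0.70 codons (SD, n = 6), lower in 6 of 6 libraries (exact p = 0.031, adjusted 0.0987). IGHV6 was shorter by 1.63 codons, at a mean of 10.2, and IGHV8 longer by 1.28, at 12.9, each in 6 of 6 libraries.

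The short IGHV14 loops came mostly from IGHV14-4. Of its 51 clones 30 had a CDR3 of 5 codons, against 63 of 3259 clones of all other genes. By library, with a clone counted in each library it was seen in, this was 5 of 9 and 5 of 6 clones in bone marrow. It was 10 of 12 and 7 of 9 in spleen, and 5 of 10 and 2 of 10 in thymus. The thymus labelled male had the lowest share of IGHV14-4 clones at this length, 20.0%, and it also had the fewest UMIs per cell. The 30 clones fell into 18 lineages, and 18 of them used IGHJ2. Their commonest sequences are shown because so short a loop leaves few bases beyond those of V and J. Capitals mark differences from variant 1.
IGHV14-4 variant 1: tgtactacaatccgttactgg
IGHV14-4 variant 2: tgtactacaaAcTACGGctgg
IGHV14-4 variant 3: tgtaGtacaatccgttactgg
IGHV14-4 variant 4: tgtactacaTtAcgACactgg
The first 9 bases of variants 1, 2 and 4 equalled the germline end of IGHV14-4, and variant 3 differed there by 1 base. Variant 1 was seen in 6 cells and variant 3 in 4 cells, all in libraries labelled male. Variants 2 and 4 were seen in 5 and 3 cells, all labelled female. Of the 56 cells with such a loop 48 were IgM.

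**Figure D4:**
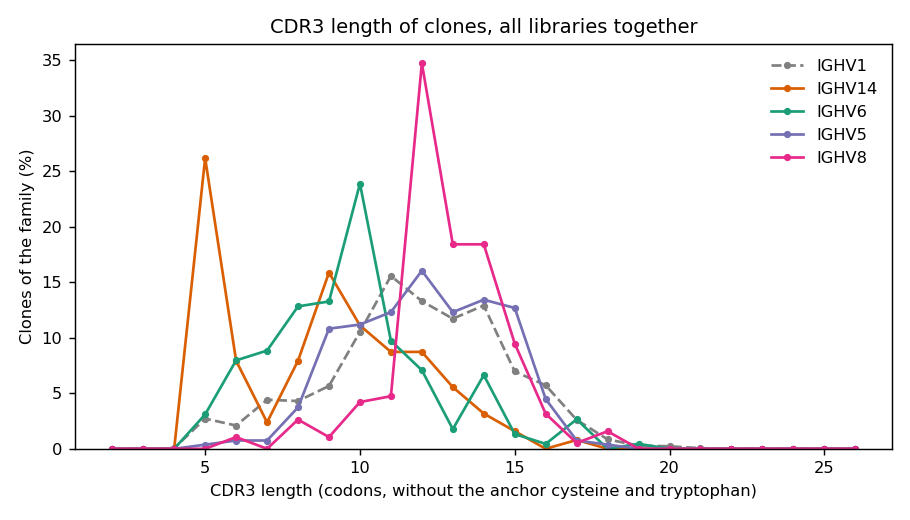
Percent of the clones of a family (vertical axis) at each CDR3 length (horizontal axis, codons without the anchors), with clones of all libraries put together. IGHV14 peaked at 5 codons with 26.2% of its clones, IGHV6 at 10 with 23.9% and IGHV8 at 12 with 34.7%, against 11 codons with 15.6% for IGHV1.

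J gene use was compared in the same way, and no comparison passed after adjustment. IGHV14 used IGHJ2 in 54.6% of clones against 34.4% of all others and IGHV9 in 50.7% against 34.5%. IGHV2 used IGHJ4 in 43.8% against 23.7%. IGHV8 used IGHJ1 in 30.1% against 19.3% and IGHJ3 in 31.7% against 19.2%, with fewer clones on IGHJ2 (25.3%) and IGHJ4 (13.0%). IGHV6 used IGHJ4 in 13.9% against 25.6%. Each held in 6 of 6 libraries, and each had an exact p of 0.031 and an adjusted p of 0.0987.

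V-region mismatches to germline, a measure added after the data were seen, were compared between members and IGHV1, and the difference did not pass after adjustment. Members differed from their germline gene at 0.50% and 0.65% of V bases in the bone marrow libraries, 0.32% and 0.53% in those of spleen, and 0.38% and 0.48% in those of thymus. IGHV1 differed at 1.14% and 0.94%, 0.83% and 0.74%, and 0.78% and 0.80%. The difference was -0.40 ± 0.16 percentage points (SD), lower in 6 of 6 libraries (exact p = 0.031), and over the 10 measures compared the adjusted p was 0.208. Over all libraries 60.0% of member clones had no mismatch, against 44.9% of IGHV1 clones. IGHV7 was the least altered of the larger families, with 82.2% of clones at germline and a mean of 0.174%, and IGHV5-9-1 had 30.7% at germline.

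Mismatches in member clones were also set out by class, and no difference passed the test. The mean was 0.70% ± 0.24 (SD, n = 6) in IgA, 0.72% ± 0.32 in IgG and 0.38% ± 0.085 in IgM. Each was above IgM in 5 of 6 libraries (exact p = 0.0625 and 0.0938, adjusted 0.125 over 4 comparisons), the exception being the thymus labelled male for IgA (0.43% against 0.48%) and the thymus labelled female for IgG (0.23% against 0.35%). In IGHV1 the IgA and IgG means were 0.93% and 1.21% against 0.78% in IgM. The IGHV1 difference for IgG, above IgM in 6 of 6 libraries, had the smallest possible exact p of 0.03125 and an adjusted p of 0.125. A single difference of any size could therefore not pass, and missing the threshold does not show that the classes were alike.

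Other measures of members and IGHV1 overlapped. IgM made up 70.3% ± 10.4 of member clones and 66.7% ± 13.3 of IGHV1 clones (SD, n = 6), and IgG 15.8% and 18.8%, lower in members in 5 of 6 libraries (exact p = 0.0625, adjusted 0.208). IgA was 13.9% and 14.5%. Mean CDR3 length was 11.7 and 11.8 codons. Clones of 2 or more cells were 29.0% ± 8.14 of member clones and 29.1% ± 6.98 of IGHV1 clones. None of the 10 measures passed after adjustment. With 6 libraries, at least 7 of the 10 would have to reach the smallest possible p for any to pass, so missing the threshold does not show that members and IGHV1 were alike.

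Most member clones were seen in a single library. Of 1519 member clones 1389 were in 1 library, 98 in 2, 30 in 3, 1 in 4 and 1 in all 6. The clone in all 6 was an IGHV8-8 clone with IGHJ3 and a CDR3 of 12 codons, the commonest length of IGHV8-8 (44 of its 130 clones). Those 44 clones fell into 18 of the 59 lineages of IGHV8-8, and 13 clones were in the lineage of this clone itself. The clone had 77 and 13 cells in bone marrow (labelled female and male), 13 and 2 in spleen, and 4 and 3 in thymus, 112 in all, of which 101 were IgM. The base sequences are shown because they separate the 2 pools, which the amino acids do not. Capitals mark the base that differs from variant 1.
IGHV8-8 variant 1: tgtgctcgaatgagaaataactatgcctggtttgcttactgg
IGHV8-8 variant 2: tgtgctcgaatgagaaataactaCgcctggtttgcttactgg
IGHV8-8 variant 3: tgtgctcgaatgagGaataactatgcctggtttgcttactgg
IGHV8-8 variant 4: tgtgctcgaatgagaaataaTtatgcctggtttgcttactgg
Variants 1, 2 and 4, with 61, 32 and 1 cells, were found only in libraries labelled female, and variant 3, with 18 cells, only in those labelled male. In 85 of the 112 cells the V region had no mismatch. In all, 10 of the 1519 member clones, with 191 cells, were seen under both labels, against 20 of 1766 IGHV1 clones. Of these 10, 4 were among the 130 IGHV8-8 clones. Whether these shares differ was not tested.

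The largest member clones differed between libraries. In the spleen labelled female it was an IGHV9-3 clone with IGHJ2, 977 cells or 33.8% of that library (exact 95% binomial interval 32.1% to 35.6%, counting error only), of which 938 were IgM and 927 had a V region at germline.
IGHV9-3 variant 1: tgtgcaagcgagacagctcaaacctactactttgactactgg
It had 10 more cells in the bone marrow labelled female. The IGHV8-8 clone above led the bone marrow labelled female with 77 cells (4.42%), and another IGHV8-8 clone led the thymus labelled female with 14 (1.54%). In the libraries labelled male the leaders were variant 1 of IGHV5-9-1 lineage 2 in bone marrow (13 cells, 1.26%, equal to the 13 cells of the IGHV8-8 clone), an IGHV3-6 clone in spleen (40 cells, 3.19%) and an IGHV14-2 clone in thymus (10 cells, 1.71%). No leading clone of the libraries labelled male reached the share of the IGHV8-8 clone in the bone marrow labelled female.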

How the data were processed

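ASCs of 6 VDJ and 6 gene expression libraries were used, grouped by the organ and sex labels. The authors processed reads with Cell Ranger 6.0.2 against mm10 (GRCm38), per the submitters' processing notes. The deposited contig tables give V, J and constant genes, CDR3 and UMI counts per contig, and the deposited matrices give UMI counts per gene and barcode, with no normalization. Cells with 1 productive IGH contig were kept. No doublet caller was run. Barcodes with 2 or more productive IGH contigs were left out by this rule, and doublets that gave 1 such contig remain. Counted over all listed IGH contigs, productive or not, 0 to 14 barcodes per library had 2 or more. Germline V sequences and positions came from the GENCODE M21 annotation, and V mismatches were taken from the framework 1 to framework 3 sequence in the contig tables, leaving out cells above 15% mismatch.

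Clone counts per V gene were tested with edgeR 4.0.16 (R 4.3.3), the quasi-likelihood test with library totals as sizes, the sex label or the library as a block, and Benjamini-Hochberg adjustment over all IGHV genes or families, with a threshold of 0.05. The low-count filter of edgeR kept no gene in the class fits, so a total of at least 15 clones was required there, and this was chosen after the counts were seen. Family fits used families with a mean of at least 5 clones per library and no dispersion trend. The SE beside an edgeR log2 fold change is not an edgeR output. It was derived as the size of the fold change divided by the square root of the test's F statistic. Shares, CDR3 lengths and J use were compared within libraries by exact two-sided sign-flip tests (Python 3.11.15, scipy 1.17.1). Methods were tested on simulated data. The block was kept because same-label libraries shared 19 to 46 member clones, and different-label libraries 1 to 5.

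Named genes were the 12 members with the highest mean share of clones, members past the threshold (at most 5 per direction and contrast) and the member with the largest clone of each library. The members and lists were chosen with earlier results of these data known. Lineages and V mismatches were added after the data were seen. Alternatives were counting cells, base-defined clones or lineages, TMM scaling, DESeq2 1.42.0, no low-count filter, at least 3 UMIs per contig, exactly 1 light chain, barcodes in a gene expression list, no shared clones, no block, and each library left out. Of 3920 CDR3s, 95 occurred with more than 1 V gene.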

Additional observations from a re-analysis of the deposited data

Results flagged for a closer look

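Of 61 effects compared between the libraries labelled female and those labelled male, 2 had all 3 libraries of 1 label on 1 side of 0 and all 3 of the other label on the opposite side. Among the 61 were 19 family comparisons picked because all 6 libraries lay on the same side, so these could not split by label. Other effects were included because their gene had been called. The count of 2 was therefore not set against a rate for random signs. Neither difference was tested, each label is 1 pool of mice, and the sex labels of the VDJ libraries go against the cell barcodes. The first was the percent of clones that were IgA in members minus that in IGHV1. It was 3.27, 0.474 and 3.12 percentage points in bone marrow, spleen and thymus labelled female and -2.05, -3.29 and -5.02 in those labelled male, a difference of 5.74 between the label means.

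The second was the share of IGHV5 in IgA clones minus its share in IgM clones. It was 4.60, 6.34 and 10.9 percentage points in the libraries labelled female and -6.23, -1.12 and -10.8 in those labelled male, a difference of 13.4 between the label means. The IgA counts behind it were small, 6, 5 and 10 IGHV5 clones labelled female and 6, 8 and 1 labelled male.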

How the results depend on the processing

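No called log2 fold change of a gene or family changed sign under any alternative run. Here and below, a bracket such as 2 of 70 counts the calls over all features tested in the same fit. Counting cells gave 0 member genes for IgG (2 of 70). It gave 0 member families for IgA (0 of 12) and 0 for spleen against bone marrow (1 of 12). It gave 1 member family for IgG (2 of 12) and 1 for thymus against bone marrow (1 of 12). It gave a member share of 34.7% in bone marrow and 54.7% in spleen, CDR3 lengths of 11.6 in spleen and 11.5 in thymus, and members minus IGHV1 of 7.88 for IGHJ2, -1.21 for IGHJ3 and 1.60 for clones of 2 or more cells, each reversed. Base-defined clones gave 2 member families by label (2 of 12) and 2 for spleen against bone marrow (2 of 12). They gave a bone marrow share of 39.0%, and reversed IGHJ2 (1.26) and clones of 2 or more cells (0.113). Lineages gave 1 member gene (1 of 61) and 0 families (0 of 11) for IgA. They gave a bone marrow share of 40.3%, and reversed IGHJ4 (0.195) and clones of 2 or more cells (0.590).

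TMM called 6 member genes for IgA (14 of 64) and 5 for IgG (9 of 64). It called 2 member families for spleen (2 of 12) and 1 for thymus (1 of 12), each against bone marrow. DESeq2 called 1 member gene for IgA (3 of 64) and 4 for IgG (6 of 64). It called 0 families for spleen against bone marrow (0 of 12). No low-count filter gave 1 member gene for IgA (2 of 91) and 2 families for spleen against bone marrow (2 of 14). At least 3 UMIs gave 2 such families (2 of 12) and a bone marrow share of 39.2%. Exactly 1 light chain gave 1 member gene (1 of 61) and 1 family (2 of 12) for IgA. It gave 2 member families for spleen against bone marrow (3 of 12) and a bone marrow share of 39.7%.

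Barcodes in a gene expression list gave 2 member genes for spleen against bone marrow (2 of 22). For thymus they gave 1 against bone marrow (1 of 22) and 1 against spleen (1 of 22). Member families in the same order were 2 (3 of 12), 1 (1 of 12) and 2 (2 of 12), and 2 by label (2 of 12). For IgA 1 member gene passed (1 of 63). The bone marrow share was 38.9% and the thymus CDR3 length 11.8. Without clones of more than 1 library there was 1 member gene for thymus against bone marrow (2 of 16). For IgA there were 1 member gene (1 of 57) and 0 families (0 of 11). For spleen against bone marrow there were 0 families (0 of 11). The bone marrow share was 41.3%, the thymus length 11.5, and the difference in clones of 2 or more cells was reversed (2.66). The causes were not tested.

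Without the replicate block, the pairing by label was ignored in the organ fits and the pairing by library in the class fits. Member calls were 1 gene (1 of 64) and 1 family (1 of 12) for IgA. They were 0 genes for IgG (1 of 64) and 0 families for spleen against bone marrow (0 of 12). Adjusted p was 0.0702 for IGHV6-6, 0.062 for IGHV7-3, 0.0926 for IGHV6 in spleen, 0.122 for IGHV8 in IgA and 0.178 for IGHV5 in IgG, and 0.0593 for IGHV9-4. The block changed no other member call.

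Leaving out each library in turn gave 1 member gene each time and 0 to 2 families for IgA, 0 to 3 genes and 0 to 3 families for IgG, 1 to 2 genes and 1 to 2 families by label, and 0 to 1 genes and 0 to 2 families for spleen against bone marrow. Members minus IGHV1 ranged from -1.35 to 0.302 for IgA, -0.234 to 0.0263 for CDR3 length, -1.37 to 0.867 for IGHJ2 (0.49 and 0.272 without either spleen library) and -1.86 to 1.02 for clones of 2 or more cells (0.71 and 0.281 among them). Over all features, the class fits without 1 library called 1 gene each and 0 to 3 families for IgA. For IgG they called 0 to 4 genes and 0 to 4 families. By label, the fits without 1 library called 2 to 5 of 28 to 38 genes and 1 to 2 of 12 families over all features. For spleen against bone marrow they called 0 to 2 of 28 to 38 genes and 0 to 2 of 12 families. IGHV9-4 could be tested in 2 of these 6 fits and passed in neither. The 22.5 UMIs per cell of the thymus labelled male, and 2 libraries an organ, limit what could be seen.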
